A study of Homo sapiens with 12 samples.

Results

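The 45 genes described here build, branch, cap, cross-link and pull on actin filaments, or tie them to the membrane. They were chosen by symbol, as a list of actin cytoskeleton genes, and all 45 were found among the 55514 genes of the table for ZNF683 and Mock libraries and among the 44389 genes of the table for Dox+ and Dox- libraries. RNA was sequenced from 12 libraries of Jurkat, an established human leukaemic T cell line, grown in RPMI with fetal calf serum. The ZNF683 group has 3 libraries, titled Hobit after the protein that ZNF683 encodes, whose genotype label reads Dox-induced ZNF683. The Mock group has 3 libraries labelled Mock, and whether they received doxycycline is not given in the labels. The Dox+ group has 3 Hobit libraries with doxycycline, listed at 1 ug/uL, and the Dox- group has 3 Hobit libraries without it. No group is Mock with doxycycline beside Mock without it, so the drug and the induced gene cannot be told apart in Dox+ against Dox-. The labels name no clone, promoter or separate culture, so the spread between libraries of a group may be technical.

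Actin monomers, held in reserve by thymosins and fed to filament ends by profilin, add to filaments that the Arp2/3 complex branches and that formins and Ena/VASP proteins lengthen. Cofilin and its relatives take filaments apart, capping protein stops their growth, and alpha-actinin, filamin, plastin, tropomyosin and myosin arrange and contract them. In T cells this network drives migration and shapes the contact with a target cell, and loss of WAS, the Wiskott-Aldrich syndrome protein, causes an immunodeficiency. ZNF683 encodes Hobit, a zinc-finger repressor related to Blimp-1 that is known from resident lymphocytes.

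Values are TPM, a length-scaled abundance, rescaled here within each table by a median-of-ratios factor per library, because a single short RNA, AL135790.1, took 50.7% of all TPM in Dox- library 1. The factors were 0.981 to 1.04 in ZNF683 libraries and 0.934 to 1.03 in Mock libraries, and 1.12 to 1.15 in Dox+ libraries and 0.576 to 1.19 in Dox- libraries. Deposited totals were 992727 to 998497 TPM, so the number of reads is unknown. Dox- library 2 stood apart through HSPA6, a stress-induced chaperone, at 637 TPM, against 0.113 to 0.341 TPM in the other Dox- libraries. HSPA6 also did not overlap in the other table, at 0.399 to 0.618 TPM in ZNF683 libraries and 4.06 to 6.85 TPM in Mock libraries, and its part in the results of either table was not tested. ZNF683 itself had 1.04 to 1.76 TPM in ZNF683 libraries and 0.681 to 1.59 TPM in Mock libraries, which overlapped, and 0.453 to 0.774 TPM in Dox+ libraries and 0.115 to 0.451 TPM in Dox- libraries. The ZNF683 transcript thus did not separate ZNF683 from Mock libraries, and the Dox+ and Dox- values did not overlap by a narrow margin. All 9 Jurkat T cell markers checked, CD3 chains and LCK among them, were at 20.7 TPM or more in every library. Of 15 markers of other cells, 9 stayed under 1 TPM in every library, and CD79A was the highest, at up to 54.7 TPM. Whether fewer cells or less RNA per cell lowers a level cannot be told apart in such libraries.

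Promoter windows from RefSeq (GRCh38.p14, 250 bases before to 50 after a start) were found for 41 of the 45 genes, as 68 windows. No window was found for ACTB, ARPC1B, RAC2 and WASF2, so these were not searched for any motif. The CArG box is the site of serum response factor (SRF), the textbook regulator of actin genes, and was searched on both strands. It was present in windows of 4 of the 41 genes (9.76%) and of 438 of all 27305 genes with a RefSeq window, expressed here or not (1.60%). The stretches that hold it are shown with the box in capitals, as the landmark of this gene family, on the strand of the gene.
ACTN1 (chr14:68977718-68977747, minus strand): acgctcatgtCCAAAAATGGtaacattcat
ACTG1 (chr17:81512874-81512903, minus strand): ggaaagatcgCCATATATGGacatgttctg
TPM4 (chr19:16067355-16067384, plus strand): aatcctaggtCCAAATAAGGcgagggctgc
FLNA (chrX:154374709-154374738, minus strand): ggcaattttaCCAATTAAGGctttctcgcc

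The first base of the box lay 171 bases before the RefSeq start in ACTN1, 94 in ACTG1, 173 in TPM4 and 94 in FLNA. TGTGGTT, a core that RUNX factors of T cells bind, was in windows of 4 of 41 genes (9.76%), against 5.23% of all genes, in the windows of ACTN4, TMSB4X, WAS and WIPF1. The stretches upstream of a start are shown with TGTGGTT in capitals, because WAS and ACTN4 are among the genes described first below.
ACTN4 (chr19:38694021-38694050, plus strand): agcctcctctcTGTGGTTtggttcacatgt
TMSB4X (chrX:12974915-12974944, plus strand): ttcgccatcgtTGTGGTTagggtgcatgca
WAS (chrX:48683740-48683769, plus strand): cccttgtccctTGTGGTTttttgcatttcc

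GTGAAAG, the core of the Blimp-1 motif, was in windows of 0 of the 41 genes, against 4.82% of all genes. The GC box GGGCGG was in windows of 40 of the 41, against 48.3% of all genes. CAGATG, an E-box of the kind TAL1 complexes bind, was in windows of 5 of the 41 (12.2%), against 17.5% of all genes. All 5 motifs were searched on both strands, and these matches describe letters in a window. The 41 genes had 68 windows and all 27305 genes had 35116, so the members had more windows per gene to hold a match. The shares were not adjusted for this.

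The 45 genes together made up 3.64%, 3.88% and 3.83% of deposited TPM in ZNF683 libraries 1 to 3, and 3.73%, 3.52% and 3.43% in Mock libraries 1 to 3. Of TPM from protein-coding genes they made up 4.13%, 4.37% and 4.42% in Dox+ libraries 1 to 3, and 3.73%, 3.37% and 3.81% in Dox- libraries 1 to 3. On that measure the ZNF683 libraries had 4.32% to 4.48% and the Mock libraries 4.05% to 4.44%. Of all deposited TPM, the Dox+ libraries had 3.36% to 3.74% and the Dox- libraries 1.52% to 3.19%. On both measures the Dox+ and Dox- shares did not overlap, while Mock library 1 lay above ZNF683 library 1. Levels spanned from GSN, the filament-severing gelsolin, at a mean of 6.23 rescaled TPM over the ZNF683 and Mock libraries, to ACTB, beta-actin, at 8407. In the doxycycline table the lowest was again GSN, at 5.67, and the highest was TMSB4X, thymosin beta-4, at 6784. The tables were rescaled apart, so levels are compared only within a table.

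**Figure D1:**
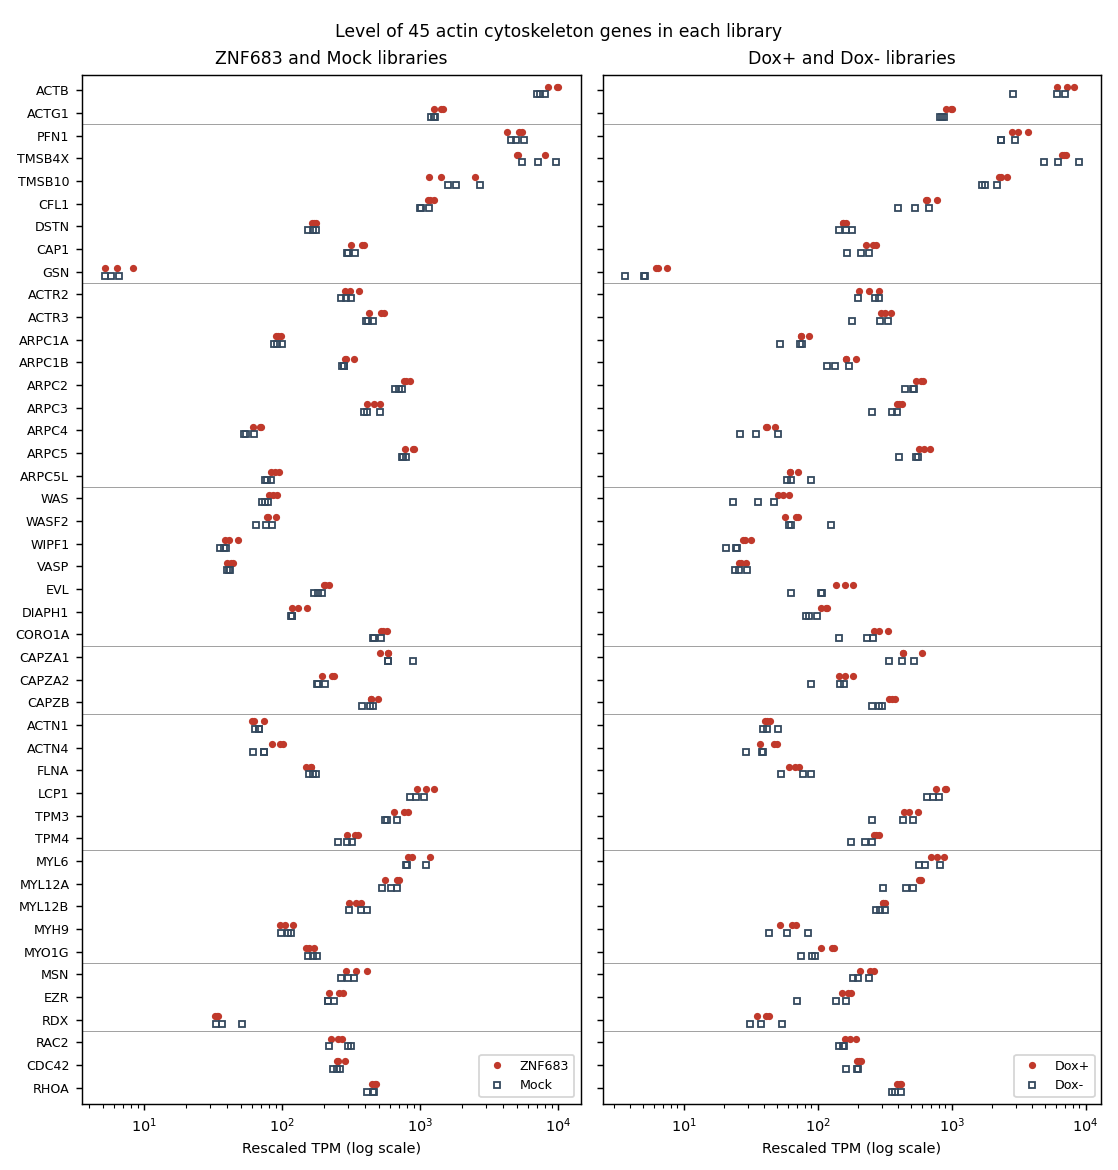
Rescaled TPM (log scale) of the 45 genes in each library, with genes down the page in order of role and thin lines between roles; filled circles are ZNF683 or Dox+ libraries and open squares are Mock or Dox- libraries. ACTB, PFN1, TMSB4X and TMSB10 lie at the top of the range and GSN alone lies near 6, and most pairs of groups overlap.

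No member passed an adjusted p of 0.05 in ZNF683 against Mock. With limma's moderated test and Benjamini-Hochberg adjustment over 16594 genes, 5 genes (0.0301%) passed, 0 of them among the 45, whose smallest adjusted p was 0.258, for ACTN4. At an unadjusted p under 0.05 there were 2 members, ACTN4 and ARPC4, against 14.2% of all genes tested. The log2 change was positive for 34 members and negative for 11, with a median of 0.14, against -0.00 over all genes tested. Every member had a mean above 5 rescaled TPM, and over the 10409 genes at that level or more the median was 0.050 and 59.7% were positive, against 75.6% of the members. All 3 ZNF683 libraries lay above all 3 Mock libraries for 6 members (13.3%), namely ACTB, ARPC1B, ARPC2, WAS, EVL and ACTN4, and for 9.44% of all genes. They lay below for 0 members and for 10.1% of all genes. Among genes at 100 rescaled TPM or more, 4 of 34 members (11.8%) and 11.3% of all such genes had ZNF683 libraries above Mock libraries, so the members' share was near the background. In either direction, the groups of 6 members (13.3%) and of 19.5% of all genes did not overlap. The count of members was 10 (22.2%, against 27.0% of all genes) when ZNF683 library 1 was left out, and 23 (51.1%, against 41.5%) when ZNF683 library 3 was. It was 16 (35.6%, against 27.8%) with Mock library 1 left out and 17 (37.8%, against 44.6%) with Mock library 3 left out. The count of genes called over the table lay between 0 (Mock library 2 left out) and 42 (ZNF683 library 1 left out).

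In Dox+ against Dox- the values of the 45 genes leaned further to one side, again with no gene called. Of 15070 genes tested, 0 (0%) passed an adjusted p of 0.05 with limma, 467 (3.10%) had an unadjusted p under 0.05, and 60 genes (0.396%) passed on TPM as deposited, 0 of them members. The smallest adjusted p of a member was 0.752, and 7 members had an unadjusted p under 0.05, namely TMSB10, GSN, WAS, EVL, DIAPH1, CAPZB and MYO1G. The log2 change was positive for 38 members and negative for 7, with a median of 0.30, against 0.00 over all genes tested and 0.049 over the 9858 genes with a mean of 5 or more, of which 56.9% were positive, against 84.4% of the members. All 3 Dox+ libraries lay above all 3 Dox- libraries for 16 members (35.6%), against 5.79% of all genes, and below for 0 members, against 5.93% of all genes. These 16 were ACTG1, TMSB10, GSN, ARPC2, ARPC3, ARPC5, WAS, WIPF1, EVL, DIAPH1, CORO1A, CAPZB, TPM4, MYL12A, MYO1G and RAC2. On TPM as deposited, 15 members lay higher without overlap (33.3%, against 7.91% of all genes). There the groups of ARPC5 and CORO1A overlapped and those of MYL12B did not. Among genes at 100 rescaled TPM or more the shares were 13 of 32 members (40.6%) and 10.2% of all such genes.

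The Dox- libraries differed among themselves in these genes. The median log2 deviation of the 45 genes was taken from each gene's mean over the Dox- libraries. It was 0.19, 0.29 and 0.34 in Dox+ libraries 1 to 3, and 0.04, -0.17 and 0.11 in Dox- libraries 1 to 3. Dox- library 2, the one with high HSPA6, was the lowest. For each gene the Dox- deviations cancel out by construction. Without Dox- library 2 the members' median log2 change was 0.17 and 19 members (42.2%) had Dox+ above Dox-, against 9.79% of all genes. Without Dox- library 3 the groups of 27 members did not overlap (60.0%), against 36.2% of all genes. With Dox- library 3, the one least taken up by AL135790.1, as the only Dox- library, the median was 0.15 and 26 members lay above it in all Dox+ libraries (57.8%), against 22.1% of all genes. As deposited, the median over all genes was 0.32 and that over the members 0.67, with 45 of 45 members positive.

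**Figure D2:**
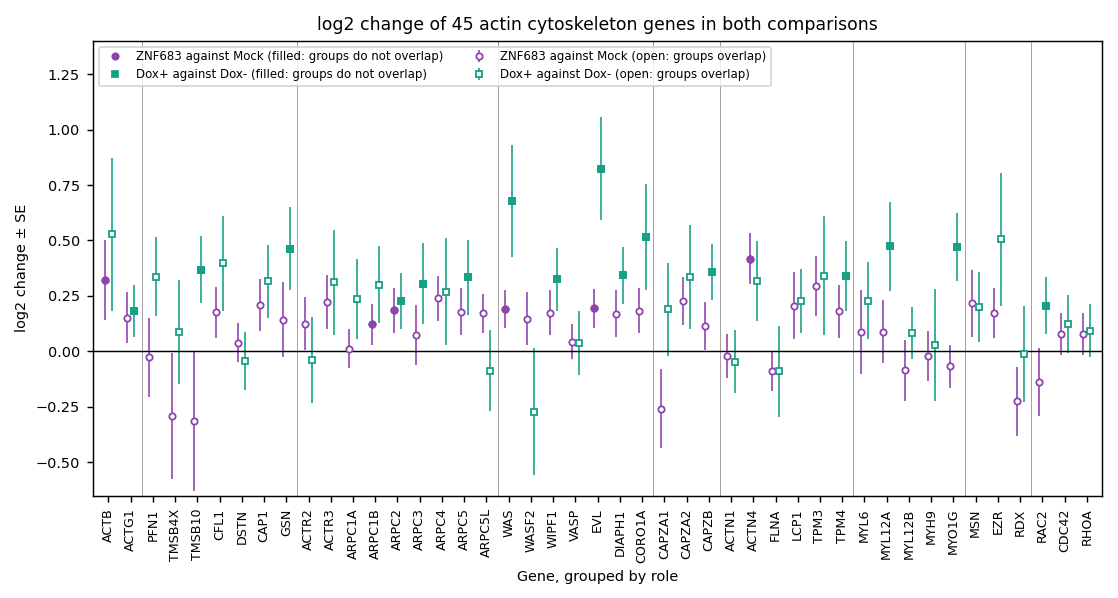
The log2 change ± SE of each gene in ZNF683 against Mock (circles) and in Dox+ against Dox- (squares), grouped by role, with filled symbols where the 3 libraries of one group all lie above those of the other. 6 circles and 16 squares are filled, all above 0, and 3 genes, ARPC2, WAS and EVL, are filled in both.

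For 3 members, ARPC2, WAS and EVL, the libraries did not overlap and lay higher in both comparisons (6.67%), against 1.24% of the 14401 genes tested in both. The comparisons share no library. The log2 change was positive in both for 30 members (66.7%), against 34.5% of all genes, and negative in both for 3. On TPM as deposited the 3 members without overlap in both were ARPC2, WIPF1 and EVL, and the WAS groups overlapped in ZNF683 against Mock. A contrast of the 2 effects over all 12 libraries called 1 gene (0.00694%) and 0 members with limma, and 2 members had an unadjusted p under 0.05, against 506 of 14401 genes. Those 2 members were MYO1G and EVL, with a difference of -0.54 ± 0.18 and -0.63 ± 0.26 on the log2 scale (ZNF683 effect minus Dox effect, ± SE) and a smallest adjusted p of 0.938.

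WAS activates the Arp2/3 complex in blood cells. It had 85.9, 91.8 and 80.6 rescaled TPM in ZNF683 libraries and 75.1, 71.8 and 78.8 in Mock libraries, a log2 change of 0.19 ± 0.09 (SE, limma adjusted p = 0.367). In the other table it had 50.9, 55.1 and 61.0 rescaled TPM in Dox+ libraries and 36.1, 23.4 and 47.4 in Dox- libraries, a log2 change of 0.68 ± 0.25 (SE, limma adjusted p = 0.752). The lowest ZNF683 library and the highest Mock library were close, whereas Dox- library 2 lay well below the other Dox- libraries.

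EVL is an Ena/VASP protein that shields growing filament ends from capping. Its level was 201, 205 and 218 rescaled TPM in ZNF683 libraries and 192, 182 and 170.3 in Mock libraries. Its level was 182, 159.7 and 138 rescaled TPM in Dox+ libraries and 107, 63.4 and 105 in Dox- libraries. The log2 change in Dox+ against Dox-, 0.82 ± 0.23 (SE, limma unadjusted p = 0.00958, adjusted p = 0.752), was the highest of the 45, and in ZNF683 against Mock it was 0.19 ± 0.09. VASP, the relative in the same family, had 42.2, 44.3 and 39.9 rescaled TPM in ZNF683 libraries and 41.5, 40.0 and 40.9 in Mock libraries. It had 25.7, 26.6 and 29.2 in Dox+ libraries and 25.7, 29.9 and 24.0 in Dox- libraries, so its groups overlapped in both tables.

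**Figure D3:**
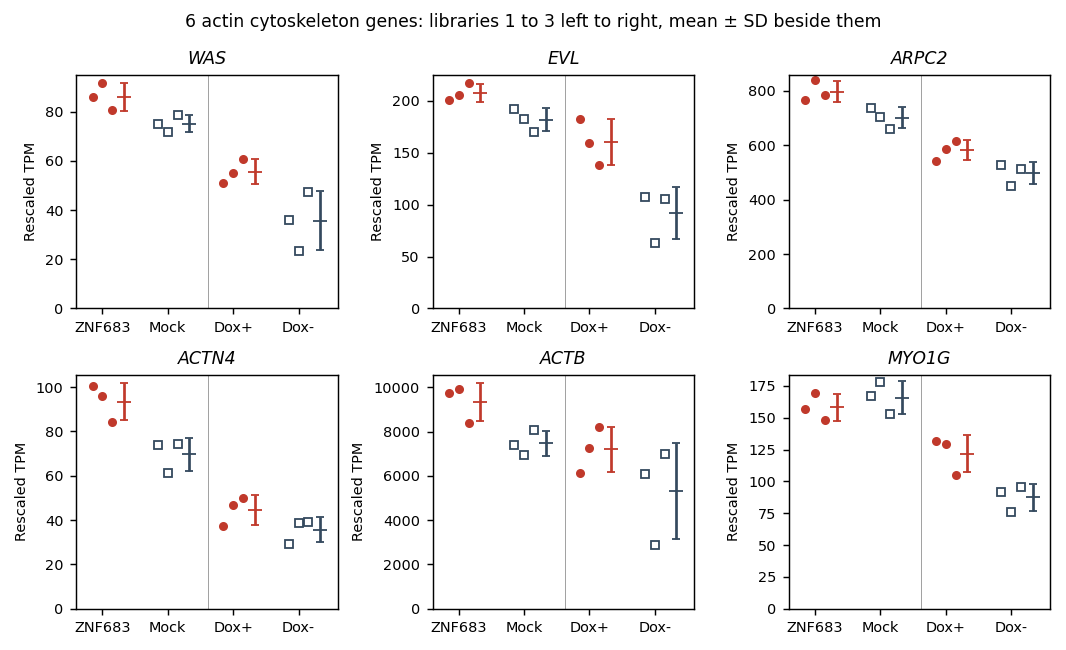
Rescaled TPM of 6 genes by group, libraries 1 to 3 from left to right within a group, with the mean ± SD beside them (n = 3); the first pair of groups and the second pair come from tables rescaled apart. WAS, EVL and ARPC2 show no overlap in either pair, ACTN4 and ACTB none in the first, and MYO1G none in the second.

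Among the other promoters of branching and elongation, WASF2, WIPF1, DIAPH1 and CORO1A had positive log2 changes in ZNF683 against Mock, and the groups overlapped for each. CORO1A, coronin 1A, a regulator of Arp2/3 and of filament turnover in leukocytes, had 540.1, 570.4 and 516 rescaled TPM in ZNF683 libraries and 519.7, 463 and 452 in Mock libraries. It had 333, 264 and 287 in Dox+ libraries and 232, 143 and 259 in Dox- libraries, a log2 change of 0.52 ± 0.24 (SE, limma adjusted p = 0.752). The lowest Dox+ library was just above the highest Dox- library after rescaling, and the groups overlapped on TPM as deposited. WASF2, a WAVE protein that relays Rac signals to Arp2/3, had its highest value of the doxycycline table, 126 rescaled TPM, in Dox- library 2. Over the 7 genes of this role, ZNF683 libraries lay above Mock libraries without overlap for 2 (28.6%, against 9.44% of all genes). Dox+ libraries lay above Dox- libraries for 5 (71.4%, against 5.79% of all genes). None lay lower without overlap in either comparison.

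The Arp2/3 complex nucleates a new filament on the side of an existing one. All 9 genes of the complex, which include the alternative subunits ARPC1A or ARPC1B and ARPC5 or ARPC5L, had a positive log2 change in ZNF683 against Mock, with a median of 0.17, and 7 of 9 did in Dox+ against Dox-, with a median of 0.27. ARPC2, a structural core subunit, had 766, 840.3 and 784 rescaled TPM in ZNF683 libraries and 737, 705 and 659.7 in Mock libraries (log2 change 0.19 ± 0.10, SE, limma adjusted p = 0.423). It had 543, 586 and 615 in Dox+ libraries and 528, 451 and 512 in Dox- libraries (log2 change 0.23 ± 0.13, SE, limma adjusted p = 0.752). The groups of ARPC2 were close to each other in both tables although they did not overlap.

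Subunits of the complex were present at unlike transcript levels. Means over the ZNF683 and Mock libraries, on the length-scaled TPM scale, ran from ARPC4, which had 70.4, 69.4 and 61.5 in ZNF683 libraries and 52.7, 54.6 and 62.8 in Mock libraries, to ARPC5. ARPC5 had 881, 906 and 780.1 in ZNF683 libraries and 736, 744 and 784 in Mock libraries. Its groups overlapped there, and in the doxycycline table they did not, at 573, 625 and 687 in Dox+ libraries and 538, 402 and 566 in Dox- libraries. On TPM as deposited, the Dox+ and Dox- values of ARPC5 overlapped. ARPC5L, the alternative to ARPC5, had 82.5, 95.1 and 88.4 in ZNF683 libraries and 83.1, 75.5 and 77.0 in Mock libraries. It had 62.1, 62.4 and 71.8 in Dox+ libraries and 59.3, 88.9 and 63.4 in Dox- libraries, and its groups overlapped in both tables, with Dox- library 2 the highest.

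ACTB and ACTG1 encode the cytoplasmic beta- and gamma-actins, which differ by a few residues at the start of the protein. ACTB had 9727, 9936 and 8370 rescaled TPM in ZNF683 libraries and 7387, 6964 and 8058 in Mock libraries, a log2 change of 0.32 ± 0.18 (SE, limma adjusted p = 0.433). It had 6127, 7274 and 8184 in Dox+ libraries and 6081, 2864 and 6985 in Dox- libraries, a log2 change of 0.53 ± 0.34 (SE, limma adjusted p = 0.752). The ZNF683 and Mock values did not overlap after rescaling but did on TPM as deposited, and the Dox+ and Dox- values overlapped, with Dox- library 2 at less than any other. ACTG1 had 1411, 1456 and 1266 in ZNF683 libraries and 1196, 1248 and 1267 in Mock libraries. It had 985, 904 and 1003 in Dox+ libraries and 825, 873 and 850.2 in Dox- libraries. ACTG1 thus held its level in Dox- library 2, where ACTB was low.

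The monomer-binding genes differed between libraries of the same group. TMSB4X, which sequesters actin monomers, had 4990, 5088 and 7958 rescaled TPM in ZNF683 libraries and 9621, 7090 and 5425 in Mock libraries, a log2 change of -0.29 ± 0.28 (SE, limma adjusted p = 0.622). TMSB10, the related thymosin beta-10, had 1417, 1156 and 2475 in ZNF683 libraries and 2713, 1805 and 1585 in Mock libraries, a log2 change of -0.31 ± 0.32. ZNF683 library 3 and Mock library 1 were high for both genes, and the groups overlapped. TMSB10 had 2275, 2352 and 2605 in Dox+ libraries and 1765, 2167 and 1692 in Dox- libraries, without overlap (log2 change 0.37 ± 0.15, SE, limma adjusted p = 0.752). TMSB4X had 7136, 6664 and 6867 in Dox+ libraries and 6275, 8865 and 4895 in Dox- libraries, with the Dox- values on both sides of the Dox+ values. Symbols of TMSB4X pseudogenes made up between 7.95% and 19.1% of the total of TMSB4X and these symbols in the ZNF683 and Mock libraries. A gene-level value does not say which copy a read came from.

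PFN1, profilin, which delivers monomers to growing ends, had 4211, 5225 and 5449 rescaled TPM in ZNF683 libraries and 5645, 4945 and 4538 in Mock libraries, with a log2 change of -0.03 ± 0.18 (SE). It had 2807, 3113 and 3734 in Dox+ libraries and 2336, 2327 and 2977 in Dox- libraries, with a log2 change of 0.34 ± 0.18 (SE, limma adjusted p = 0.752), and the groups overlapped in both tables. Over the 7 genes of monomer binding and turnover, which also include the severing proteins CFL1, DSTN and GSN and the recycling protein CAP1, 4 log2 changes were positive in ZNF683 against Mock and 6 in Dox+ against Dox-. Pseudogene symbols of DSTN made up between 6.72% and 8.90% of the total of DSTN and these symbols in the ZNF683 and Mock libraries. In all, 22 members had such symbols in that table. For 5 members in each table these symbols made up, at their highest, over 1% of the member and its copies together.

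The lean of ZNF683 library 3 and Mock library 1 reached short transcripts in general. Taking the shortest principal coding transcript in GENCODE 29, 5 members were under 1000 nt, namely TMSB4X, TMSB10, CAPZB, MYL6 and MYL12A. Log2 deviations here are from each gene's mean over the Mock libraries. The median of these 5 members was -0.12, -0.03 and 0.21 in ZNF683 libraries 1 to 3 and 0.31, -0.02 and -0.20 in Mock libraries 1 to 3. Over 953 tested genes under 1000 nt the medians were -0.26, -0.15 and 0.11 in ZNF683 libraries and 0.17, -0.06 and -0.11 in Mock libraries. The 40 longer members had medians of 0.15, 0.21 and 0.03 in ZNF683 libraries and 0.01, -0.02 and -0.00 in Mock libraries. With ZNF683 library 3 and Mock library 1 both left out, a setting added after seeing the data, the groups of 32 members did not overlap, 28 of them higher in ZNF683 (62.2%, against 25.0% of all genes) and 4 lower, and the members' median was 0.19. The part of transcript length in these differences was not tested.

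Alpha-actinins cross-link filaments and tie them to adhesion sites. ACTN4 had 100.4, 96.0 and 84.1 rescaled TPM in ZNF683 libraries and 74.0, 61.1 and 74.1 in Mock libraries, without overlap. Its log2 change of 0.42 ± 0.11 (SE, limma unadjusted p = 0.00678, adjusted p = 0.258) was the highest of the 45 in ZNF683 against Mock. In the doxycycline table it had 37.1, 47.0 and 49.9 in Dox+ libraries and 29.3, 38.6 and 39.2 in Dox- libraries, and the groups overlapped through Dox+ library 1. ACTN1, its paralogue, had 73.4, 62.6 and 60.5 in ZNF683 libraries and 67.3, 68.3 and 62.9 in Mock libraries. It had 40.8, 43.8 and 42.0 in Dox+ libraries and 39.2, 50.4 and 41.9 in Dox- libraries, so neither table separated it.

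TPM3, a tropomyosin that coats filaments, had 811, 764 and 642 rescaled TPM in ZNF683 libraries and 572, 552 and 681 in Mock libraries (log2 change 0.30 ± 0.14, SE, limma adjusted p = 0.372). It had 438, 478 and 562 in Dox+ libraries and 436, 256 and 518 in Dox- libraries, and both pairs of groups overlapped. Of the 6 cross-linkers, bundlers and tropomyosins, which also include filamin A (FLNA), the leukocyte plastin LCP1 and TPM4, the log2 change was positive for 4 in each comparison. TPM4 was the one whose groups did not overlap in Dox+ against Dox-, with a log2 change of 0.34 ± 0.16 (SE). Of the 4 genes with a CArG box among the 41 searched, ACTG1 and TPM4 lay higher without overlap in Dox+ libraries. So did 35.6% of the 45 members and 5.79% of all genes. The others, ACTN1 and FLNA, did not, and ACTB was not searched. In ZNF683 against Mock the groups of all 4 overlapped, with positive log2 changes for ACTG1 and TPM4 and negative ones for ACTN1 and FLNA. A part of the box in these values was not tested.

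Capping protein is a dimer of an alpha subunit, CAPZA1 or CAPZA2, and CAPZB. CAPZA1 had 579, 587 and 513 rescaled TPM in ZNF683 libraries and 579.8, 885 and 582 in Mock libraries, a log2 change of -0.26 ± 0.18 (SE, limma adjusted p = 0.504), with Mock library 2 far above the rest. CAPZA2 had 239, 228 and 195 in ZNF683 libraries and 178, 182 and 203 in Mock libraries, a log2 change of 0.23 ± 0.11 (SE, limma adjusted p = 0.384). In the doxycycline table CAPZA1 had 606, 437 and 430.2 in Dox+ libraries and 524, 343 and 427 in Dox- libraries. CAPZA2 had 145, 159 and 184 in Dox+ libraries and 148, 89.6 and 158 in Dox- libraries, and all of these groups overlapped.

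The myosin genes encode the non-muscle heavy chain MYH9, its light chains MYL6, MYL12A and MYL12B, and the leukocyte class I myosin MYO1G. MYL12A had 553, 678 and 696 rescaled TPM in ZNF683 libraries and 674, 613 and 524 in Mock libraries, and 567, 583 and 586 in Dox+ libraries and 513, 307 and 458 in Dox- libraries. Its log2 change was 0.09 ± 0.14 in ZNF683 against Mock and 0.47 ± 0.20 in Dox+ against Dox- (SE, limma adjusted p = 0.771 and 0.752), and only the Dox+ and Dox- values did not overlap. MYL12B had 303, 341 and 374 in ZNF683 libraries and 408, 371 and 304 in Mock libraries, and 310.1, 308 and 318 in Dox+ libraries and 318, 294 and 273 in Dox- libraries, with overlap in both tables. MYO1G, singled out after its values were seen, had 157, 169.6 and 149 in ZNF683 libraries and 167, 178 and 153 in Mock libraries, which overlapped. It had 131, 129 and 105 in Dox+ libraries and 91.4, 75.7 and 95.7 in Dox- libraries, without overlap.

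Ezrin (EZR), moesin (MSN) and radixin (RDX) link filaments to the plasma membrane. EZR had 274, 259 and 218 rescaled TPM in ZNF683 libraries and 214, 213 and 235 in Mock libraries, and 153, 168 and 176 in Dox+ libraries and 137, 70.5 and 162 in Dox- libraries. Its log2 change was 0.17 ± 0.11 in ZNF683 against Mock and 0.50 ± 0.30 in Dox+ against Dox- (SE, limma adjusted p = 0.473 and 0.752), and the groups overlapped in both. Of the small GTPases that switch these pathways, RHOA and CDC42 overlapped in both tables, and RAC2, the Rac of blood cells, was higher without overlap in Dox+ libraries (log2 change 0.21 ± 0.13, SE).

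Ratios of paralogues within a library depend little on the scaling of libraries. Of 13 pairs, 4 ratios did not overlap between ZNF683 and Mock libraries and 3 did not overlap between Dox+ and Dox- libraries. With 3 libraries per group a two-sided exact permutation test cannot go below p = 0.1, which each of these ratios reached, and the values adjusted over the 13 pairs were 0.325 and 0.433. ACTN1/ACTN4 was 0.731, 0.651 and 0.719 in ZNF683 libraries and 0.909, 1.12 and 0.849 in Mock libraries, so ACTN4 was the higher of the pair in every ZNF683 library. ACTG1/ACTB was 0.145, 0.147 and 0.151 in ZNF683 libraries and 0.162, 0.179 and 0.157 in Mock libraries. CAPZA2/CAPZA1 was higher in ZNF683 libraries, at 0.412, 0.389 and 0.379, than in Mock libraries, at 0.307, 0.206 and 0.349.

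MYL12B/MYL12A was the ratio that did not overlap in either table, and it was lower in ZNF683 and in Dox+ libraries. It was 0.548, 0.503 and 0.537 in ZNF683 libraries and 0.605, 0.605 and 0.581 in Mock libraries, and 0.547, 0.528 and 0.543 in Dox+ libraries and 0.620, 0.958 and 0.596 in Dox- libraries. EVL/VASP was 7.09, 5.99 and 4.73 in Dox+ libraries and 4.16, 2.12 and 4.39 in Dox- libraries, and it overlapped between ZNF683 and Mock libraries. ARPC5L/ARPC5 was 0.108, 0.0998 and 0.105 in Dox+ libraries and 0.110, 0.221 and 0.112 in Dox- libraries, a gap that was narrow apart from Dox- library 2. The number of ratios that did not overlap was 7 without Mock library 1, 5 without Dox+ library 1 and 8 without Dox- library 3. Fewer libraries span a narrower range. Without Dox- library 3, 18.7% of all single genes lay higher without overlap and 17.5% lower, against 5.79% and 5.93% with all libraries. No share over other gene pairs was computed, so these counts are not read as a result about the pairs.

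**Figure D4:**
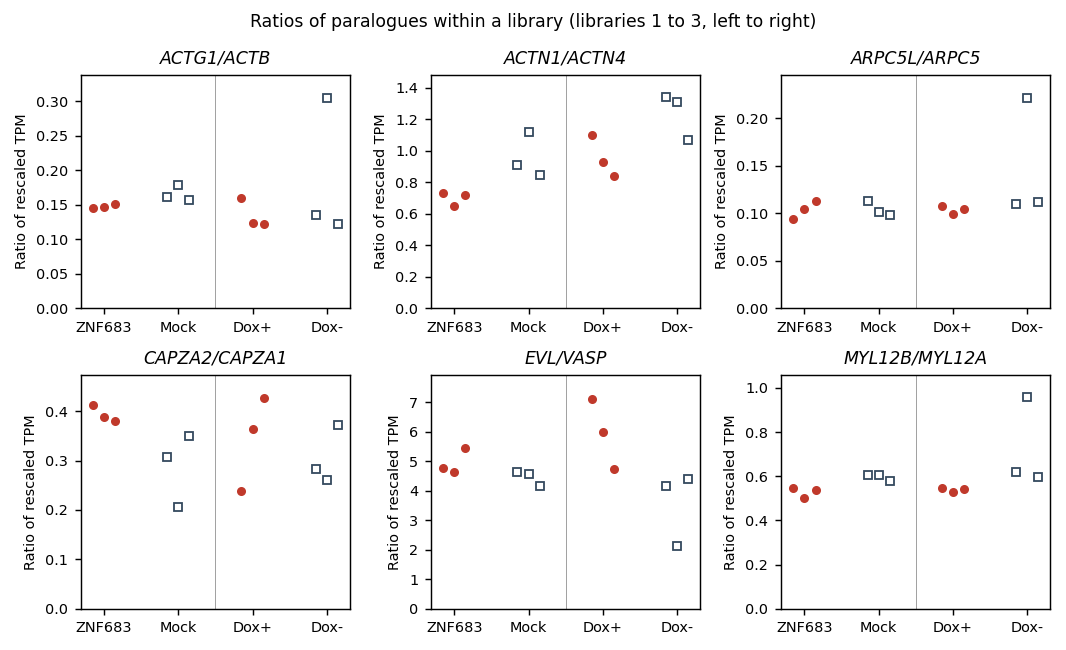
Within-library ratios of rescaled TPM for the 6 pairs that did not overlap in at least 1 comparison, by group, with libraries 1 to 3 from left to right. MYL12B/MYL12A is lower in ZNF683 than in Mock libraries and lower in Dox+ than in Dox- libraries, and Dox- library 2 stands apart for ACTG1/ACTB, ARPC5L/ARPC5, EVL/VASP and MYL12B/MYL12A.

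The actin pathway beyond the 45 genes was read from 6 lists of regulators, of which 141 genes were tested in ZNF683 against Mock and 138 in Dox+ against Dox-. None passed an adjusted p of 0.05 with limma in either comparison. At an unadjusted p under 0.05 there were 19 in ZNF683 against Mock, where 14.2% of all genes had one, and 6 in Dox+ against Dox-, where 3.10% had one. ZNF683 libraries lay above Mock libraries without overlap for 14 (9.93%, against 9.44% of all genes) and below for 15 (10.6%, against 10.1%). Dox+ libraries lay above Dox- libraries for 10 (7.25%, against 5.79%) and below for 8 (5.80%, against 5.93%), so these shares were near the background. Their median log2 changes were 0.06 and 0.03, against 0.14 and 0.30 for the 45 members. In ZNF683 against Mock, MARCKSL1, a membrane-bound actin regulator, had a mean of 535 ± 192 rescaled TPM in ZNF683 libraries and 245 ± 41.9 in Mock libraries (SD, n = 3 each, limma adjusted p = 0.258). CAPG, a macrophage-type capping protein, averaged 242 in ZNF683 libraries and 374 in Mock libraries, and DOCK11, an activator of CDC42, averaged 7.53 in ZNF683 libraries and 14.1 in Mock libraries.

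In Dox+ against Dox-, GMFG, which removes Arp2/3 branches in leukocytes, averaged 542 in Dox+ libraries and 398 in Dox- libraries. RHOH, a GTPase of blood cells, averaged 212 in Dox+ libraries and 145 in Dox- libraries. In the SRF list, of which 16 genes were tested, ZNF683 libraries lay above Mock libraries for 12.5% and below for 18.8%. Dox+ libraries lay above Dox- libraries for 12.5% and below for 0%. MICAL2, with the smallest p of the list in ZNF683 against Mock, averaged 6.22 in ZNF683 libraries and 8.81 in Mock libraries without overlap. EGR1, an immediate early gene, averaged 3.08 in ZNF683 libraries and 8.31 in Mock libraries without overlap. It averaged 2.55 in Dox+ libraries and 1.39 in Dox- libraries with overlap. ACTA2, with the smallest p of the list in Dox+ against Dox-, averaged 2.99 in Dox+ libraries and 1.77 in Dox- libraries without overlap.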

How the data were processed

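Total RNA (Qiagen RNeasy) went into NEBNext low-input libraries, per the labels' protocols; kallisto 0.46.0 and DESeq2 1.22.2 are named, with no role, in the submitters' processing notes. The authors deposited TPM per gene symbol in 2 tables. The genome build is not given in the sources used here. TPM keeps no read number, so depth is unknown and values carry no counting error. Within each table TPM was divided by median-of-ratios factors, genes with a mean of at least 1 were kept, and log2(value + 1) was tested with limma 3.58.1 in R 4.3.3 (trend, two-sided, Benjamini-Hochberg over all genes tested, threshold 0.05). A fold change on that scale understates the change of low genes. Fits with a library left out kept the factors and filter of all 6 libraries. Paralogue ratios are printed as plain ratios of rescaled TPM, and their overlap and exact tests used log2(value + 1). The fit was tested on simulated data. Positions and transcript lengths are from GENCODE 29, promoters from RefSeq.

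The members, lists and pairs were chosen with earlier results of these data known; so was the rescaling. Values in every library are given for the 3 highest members of each table, the 6 largest log2 changes of each comparison, members without overlap in both, and pairs whose ratio did not overlap (20 genes), and for MYO1G and ARPC4 besides. The length limit of 1000 nt and the level of 100 were set after seeing the data. Alternatives were TPM as deposited, AL135790.1 left out, a pseudocount of 0.1, no filter or a minimum mean of 5, robust limma, no trend, a replicate block and each library left out.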

Additional observations from a re-analysis of the deposited data

How the results depend on the processing

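Of 600 alternative values of named members' log2 changes, 579 kept their direction and none passed the threshold. No filter, a minimum mean of 5, robust limma, no trend and the replicate block leave these log2 changes as they are. The 40 values of each of these settings could therefore only keep their direction. The cause of the exceptions was not tested. In ZNF683 against Mock, 0 members were called under any alternative run, and the count of all genes called was 5, against 3 with a pseudocount of 0.1, 0 with no filter, 0 with a minimum mean of 5, 0 with the replicate block, 1 without ZNF683 library 3 and Mock library 1, and 0 to 42 with each library left out in turn. Members whose groups did not overlap numbered 6 to 23 with 1 library left out, against 23.8% to 44.6% of all genes, and 32 (71.1%, against 50.4%) with ZNF683 library 3 and Mock library 1 left out; fewer libraries span a narrower range. In Dox+ against Dox-, 60 genes were called on TPM as deposited and 0 to 1 with 1 library left out. The members' median was 0.67 as deposited, 0.15 with Dox- library 3 alone, and 0.17 to 0.31 with 1 library left out. Groups of 16 to 27 members did not overlap with 1 library left out, against 17.1% to 36.2% of all genes, and of 28 (62.2%, against 44.9%) with Dox- library 3 alone, which is assumed to vary like the others. The contrast of effects called 2 genes as deposited, 2 with no filter and up to 3 with 1 library left out. Ratios not overlapping numbered 4 to 7 in ZNF683 against Mock and 3 to 8 in Dox+ against Dox-, with no share over other pairs computed. These counts and both settings that leave out 2 libraries were added after seeing the data. Some members' log2 changes, none past the threshold, turned in direction. In ZNF683 against Mock as deposited, PFN1 was 0.0067 and ACTN1 0.014, and ACTN1 was 0.047 without ZNF683 library 3 and Mock library 1. With each library left out in turn the log2 change ran from -0.10 to 0.087 for PFN1, -0.10 to 0.034 for ACTN1, -0.0092 to 0.19 for MYL12A and -0.20 to 0.0083 for MYL12B. In Dox+ against Dox- as deposited, ARPC5L was 0.28 and ACTN1 0.31, and ACTN1 was 0.015 without AL135790.1. With Dox- library 3 alone ARPC5L was 0.042, ACTN1 0.010 and TPM3 -0.081. With each library left out in turn the range was -0.20 to 0.089 for ARPC5L, -0.12 to 0.057 for ACTN1, -0.029 to 0.12 for VASP and -0.12 to 0.31 for TMSB4X. Same-numbered libraries correlated at -0.20, 0.07 and -0.25 in ZNF683 and Mock and at 0.02, 0.06 and 0.36 in Dox+ and Dox-, so the numbers were not taken as pairs; the replicate block called 0 genes in each table. TPM limits precision, since reads are unknown.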
